A study of Caenorhabditis elegans with 6 samples.

Results

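The genes described here belong to families that include small antimicrobial peptides of the epidermis of Caenorhabditis elegans. Whether each of them is antimicrobial or expressed in the epidermis was not tested. They were chosen by name alone: every numbered cnc, fip and fipr gene, and nlp-24 to nlp-34. This gave 58 of the 46739 features in the table, made up of 11 cnc, 7 fip, 29 fipr and 11 nlp genes. All worms were N2, the wild-type strain, harvested as whole L4 larvae after growth at 20 °C on RNAi bacteria throughout development. The control group of 3 libraries (the controls below) received bacteria with the empty vector alone, which has no worm target. The other group of 3 (the rab-11.1 libraries) received bacteria that make double-stranded RNA against rab-11.1, a small GTPase of recycling endosomes, which carry membrane and cargo back to the cell surface. The labels name no mutant allele or transgene in either group. Feeding RNAi is not limited to the epidermis, and the RNA was polyadenylated RNA of all tissues together. In such whole-worm RNA, fewer cells of a type and less RNA per cell cannot be told apart.

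The epidermis of the worm lies under the cuticle and is the tissue that fungi such as Drechmeria coniospora pierce. It answers infection or wounding by switching on genes for secreted peptides rich in glycine and aromatic residues. The nlp-29 group (neuropeptide-like proteins) is driven by a p38 MAP kinase cascade, TIR-1, NSY-1, SEK-1 and PMK-1, and by the STAT-like factor STA-2. The cnc genes (caenacins) around cnc-2 are instead driven by the TGF-beta ligand DBL-1 and its Smads. The fip and fipr genes (fungus-induced proteins and their relatives) are further families found through fungal infection. Genes of the nlp-29 group are also known to respond to cuticle damage and osmotic stress.

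Sequencing depths, recovered from the steps between deposited values, were 27190567 to 30183162 reads for empty vector and 22946375 to 25107994 reads for rab-11.1 RNAi. The target rab-11.1 stood at 398.2 to 411.1 RPKM in controls (RPKM is the number of reads scaled to transcript length and library depth). Replicates 1 and 2 of rab-11.1 RNAi had 151.3 and 137.8 RPKM of it, whereas 632.6 RPKM was found under the label rab-11.1 RNAi replicate 3. For its target that library thus contradicts the label, and every direction below includes it unless stated. With it rab-11.1 did not pass (adjusted p = 0.415 by limma for a log2 fold change of -0.78 with an SE of 0.55). The gene rab-11.2 stood at 0, 0.136 and 0.200 RPKM in control replicates 1, 2 and 3. In rab-11.1 replicates 1, 2 and 3 it stood at 1.96, 2.74 and 2.06 RPKM. Why the libraries differ in these genes was not tested. The labelled tissue is the whole worm, and all 16 genes of a list of epidermis markers were above the filter on low values.

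Of the 58 members, 32 reached 1 RPKM in at least 3 libraries and were tested, and 8 of these rose after rab-11.1 RNAi. They were nlp-25, nlp-28, nlp-29, nlp-30, nlp-31, nlp-34, cnc-4 and fip-6. None of the 32 fell (0 members with an adjusted p at or under 0.05 by limma, and 0 lower at an unadjusted p under 0.05), and limma-voom on recovered reads called 7 higher and 0 lower. The 8 higher members were 25% of those tested, against 7.93% of all 13833 features tested. Lower calls were 1.07% of all features. Of the tested members 11 (34.4%) had every rab-11.1 library above every control, against 27.4% of all features, and 0 had every one below, against 6.53%. The median log2 fold change of the tested members was 0.56, beside 0.09 over all features. The filter let nlp-25 pass only through the rab-11.1 libraries, so it could not have been counted as falling.

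The fit above ignores the replicate numbers. With the replicate number as a block, 16 of the 32 tested members (50%) were higher and 1 was lower, against 16.5% and 4.47% of all features. A blocked fit on replicates 1 and 2 alone gave 10 higher (31.2%) and 0 lower members, against 5.80% and 1.22%. With both replicate 2 libraries left out and no block, 16 (50%) were higher and 0 lower, against 12.6% and 3.46%. Without the library labelled replicate 3 of rab-11.1 RNAi, 5 members (15.6%) were higher, against 4.71% of all features, and 0 were lower, against 0.629%. These 5 were nlp-25, nlp-30, nlp-34, cnc-4 and fip-6. Scaling the libraries by the median of their gene ratios left 7 higher members (21.9%) and 0 lower, against 4% and 2.05% of all features. Quantile normalization also left 7 (21.9%) and 0, against 3.79% and 1.80%. All adjusted p-values below are from limma on log2(RPKM + 1) over all 13833 features, and fold values are ratios of mean RPKM. The log2 fold changes are on the log2(RPKM + 1) scale, where the change of a weakly expressed gene comes out too small.

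**Figure D1:**
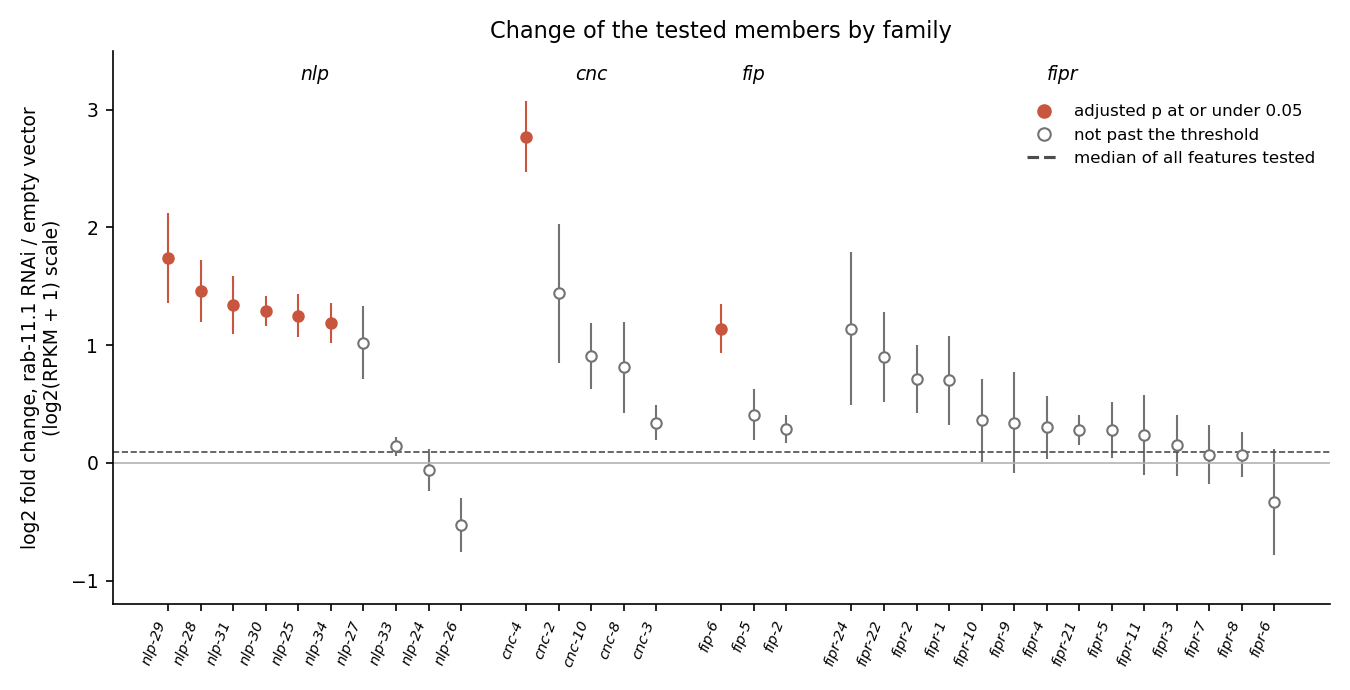
Log2 fold change (rab-11.1 RNAi over empty vector, log2(RPKM + 1) scale) of the 32 tested members with bars of 1 SE, by family. Filled points passed an adjusted p of 0.05, and the dashed line is the median of all features, 0.09. The nlp family holds 6 of the 8 filled points, and no fipr gene is filled.

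The genes around nlp-29 were higher together. On chromosome V of WBcel235, nlp-34, nlp-31, nlp-30, nlp-29, nlp-28 and nlp-27 lie in that order between positions 3978825 and 3989770, with no other annotated gene inside these 10946 bases. All 6 were higher in every rab-11.1 library than in any empty vector library, and 5 of them passed. Of all features tested, 27.4% had every rab-11.1 library above every control, and 7.93% were called higher.

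The gene nlp-29 (WBGene00003767, chromosome V, 3984425 to 3984847, plus strand, protein coding) is the usual reporter of the epidermal response to fungal infection and wounding. Control replicates 1, 2 and 3 held 10.7, 23.5 and 13.1 RPKM of it, and rab-11.1 replicates 1, 2 and 3 held 35.9, 87.6 and 45.3 RPKM, the order used for all values below. Replicate 2 was the highest library of each group, and the lowest rab-11.1 RNAi value was above the highest empty vector value. The mean went from 15.8 ± 6.78 in controls to 56.3 ± 27.6 RPKM (SD, n = 3), which is 3.57-fold (adjusted p = 0.0385 for a log2 fold change of 1.74 with an SE of 0.38). Between libraries of the same number the ratio was 3.35, 3.74 and 3.46. With the block the SE fell to 0.07 and the adjusted p was 0.000392. Without a block the call ended when any single library other than control replicate 2 was left out (adjusted p = 0.0611 to 0.15), and under median-of-ratios scaling and quantile normalization (adjusted p = 0.0606 and 0.0613).

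The neighbour nlp-31 (3980055 to 3980622, plus strand), whose peptide is known for antimicrobial activity, had the highest mean RPKM of the neighbourhood. It stood at 18.8, 33.4 and 21.8 RPKM in controls and at 51.9, 83.5 and 55.5 RPKM in rab-11.1 libraries, on 253 to 869 reads a library. The increase was 2.58-fold (adjusted p = 0.0252 for a log2 fold change of 1.34 with an SE of 0.25), with ratios of 2.76, 2.5 and 2.55 by replicate number. As for nlp-29, replicate 2 was highest in each group and the groups did not overlap. The call ended without control replicate 1 or 3, without rab-11.1 replicate 1 and without the library labelled replicate 3 (adjusted p = 0.0556 to 0.111), and with the block it was 0.00062.

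The gene nlp-30 (3981980 to 3982741, plus strand) encodes a peptide of the same family and had the smallest adjusted p of all members. It stood at 8.67, 9.75 and 8.91 RPKM in controls and at 20.5, 27.98 and 23.1 RPKM in rab-11.1 libraries. The increase was 2.62-fold (adjusted p = 0.0031 for a log2 fold change of 1.29 with an SE of 0.13). Its empty vector values lay closer together than those of nlp-29 or nlp-31, and its call held without any single library.

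At the left end, nlp-34 (3978825 to 3979134, minus strand) stood at 5.61, 4.36 and 5.80 RPKM in controls and at 13.1, 15.98 and 11.03 RPKM in rab-11.1 libraries. Unlike its neighbours it was lowest, not highest, in control replicate 2. The increase was 2.54-fold (adjusted p = 0.00968 for a log2 fold change of 1.19 with an SE of 0.17), and it too held without any single library.

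At the right end lie nlp-28 and nlp-27. The gene nlp-28 (3987900 to 3988316, plus strand) stood at 1.19, 2.502 and 1.66 RPKM in controls, on 12, 25 and 15 reads, and at 5.10, 9.26 and 5.74 RPKM in rab-11.1 libraries, on 39, 72 and 48 reads. This was a 3.76-fold increase (adjusted p = 0.0225 for a log2 fold change of 1.46 with an SE of 0.26). The groups did not overlap. The call ended without control replicate 1 or 3 or the library labelled replicate 3 of rab-11.1 RNAi (adjusted p = 0.0534 to 0.103).

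The gene nlp-27 (3989378 to 3989770, plus strand) did not pass. It stood at 7.53, 12.4 and 7.99 RPKM in controls and at 12.9, 29.3 and 19.3 RPKM in rab-11.1 libraries, a ratio of means of 2.20 (adjusted p = 0.0906 for a log2 fold change of 1.02 with an SE of 0.31). The groups did not overlap, but rab-11.1 replicate 1 lay only just above control replicate 2. With the block nlp-27 passed (adjusted p = 0.00569).

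**Figure D2:**
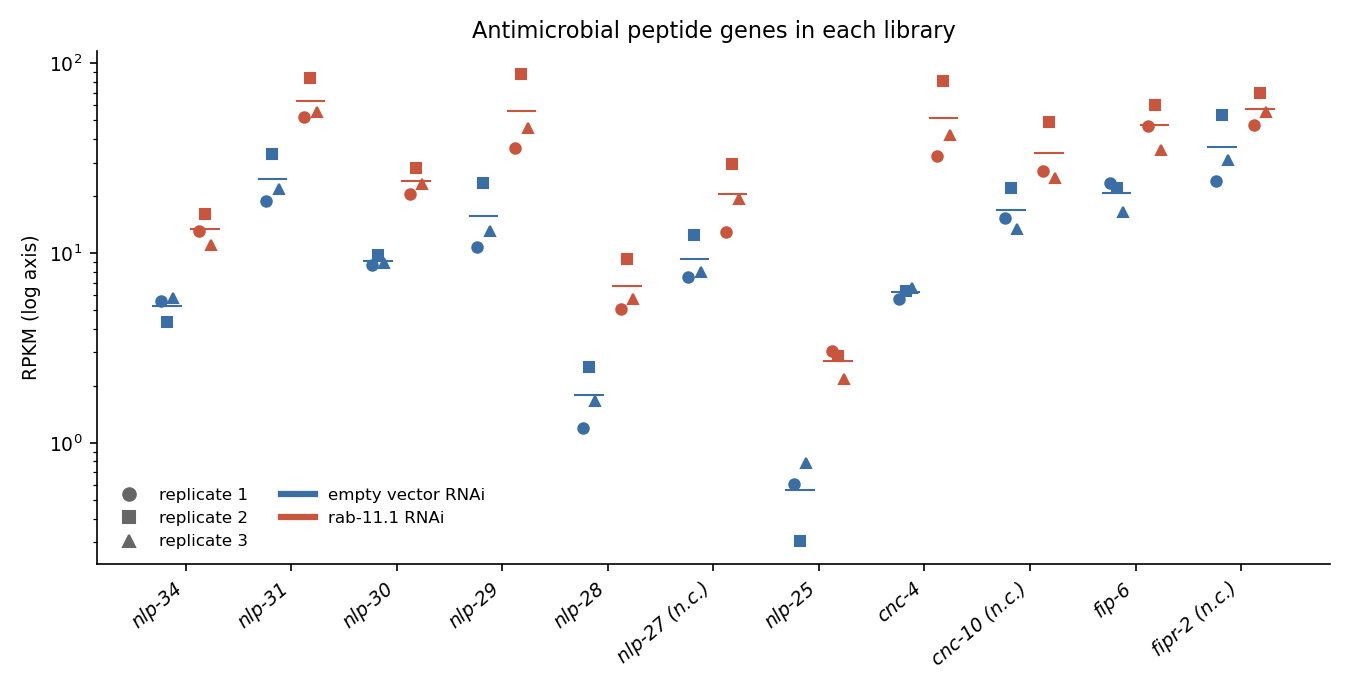
RPKM (log axis) of the 8 members that passed and the 3 with the next smallest adjusted p (marked n.c., not called), in each of 6 libraries, with symbols for replicate numbers and bars for group means. The red points of nlp-29 and its neighbours lie above the blue ones, and squares (replicate 2) are often highest within a group.

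The remaining nlp members lie elsewhere on chromosome V or, for nlp-32, on chromosome III, and nlp-25 was the 1 gene of them that passed. The gene nlp-25 (19606180 to 19608419, plus strand) rose from near the floor. It stood at 0.606, 0.305 and 0.785 RPKM in controls, on 6, 3 and 7 reads, and at 3.06, 2.87 and 2.19 RPKM in rab-11.1 libraries, on 23, 22 and 18 reads. The log2 fold change was 1.25 (SE 0.18, adjusted p = 0.0115). The call ended without control replicate 1 (adjusted p = 0.0536) and without rab-11.1 replicate 1 (adjusted p = 0.0506).

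Its neighbour nlp-26, a little further along the chromosome, had the lowest log2 fold change of all tested members. Its means were 17.4 ± 5.25 and 11.5 ± 1.94 RPKM (adjusted p = 0.19 for a log2 fold change of -0.53 with an SE of 0.23), and the groups overlapped. With the block it was the 1 member called lower (adjusted p = 0.0198). Its exons overlap Y43F8C.3 on the other strand, and the sources used here do not say whether reads were counted by strand.

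The most abundant nlp members, nlp-24 and nlp-33, did not pass. The gene nlp-24 (11616376 to 11616828, plus strand) stood at 212.4, 337.5 and 236.4 RPKM in controls and at 228.8, 235.6 and 276.8 RPKM in rab-11.1 libraries (adjusted p = 0.86 for a log2 fold change of -0.06 with an SE of 0.18). The highest and the lowest value of all 6 libraries were both from the empty vector group, and the sign turned to 0.13 without control replicate 2. Its exons overlap glb-15 on the other strand.

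The gene nlp-33 (11147346 to 11147737, plus strand) was nearly flat, at 148.0, 161.8 and 142.3 RPKM against 154.6, 173.8 and 170.9 RPKM. The log2 fold change was 0.14 (SE 0.08, adjusted p = 0.331), and the groups overlapped. Both genes thus stood above every gene of the nlp-29 neighbourhood in RPKM without a detected change.

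The largest change of all members was that of a caenacin. The gene cnc-4 (WBGene00000558, chromosome V, 1447195 to 1447707, plus strand) stood at 5.77, 6.29 and 6.58 RPKM in controls, on 71 to 77 reads, and at 32.5, 80.8 and 42.0 RPKM in rab-11.1 libraries, on 304 to 770 reads. The empty vector values were nearly equal, whereas rab-11.1 replicate 2 was far above the other libraries of its group. The means of 6.21 ± 0.413 and 51.8 ± 25.6 RPKM gave an 8.33-fold increase (adjusted p = 0.00448 for a log2 fold change of 2.77 with an SE of 0.30). It passed in all 6 fits that left out 1 library (highest adjusted p = 0.0311) and stood at the 99.8th percentile of the log2 fold changes of all features tested.

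The neighbours of cnc-4 did not share its call. In a stretch of 7842 bases (1442342 to 1450183) lie cnc-11, cnc-1, cnc-5, cnc-4, cnc-3 and cnc-2, of which only the last 3 were tested. The adjacent gene cnc-3 (1448004 to 1448792, plus strand) was already high, at 45.6, 48.8 and 38.3 RPKM in controls and 57.9, 66.5 and 45.6 RPKM in rab-11.1 libraries. Its groups overlapped, and the log2 fold change was 0.34 (SE 0.15, adjusted p = 0.216), though with the block it passed (adjusted p = 0.0265).

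The gene cnc-2 (1449665 to 1450183, minus strand) is the usual readout of the DBL-1 branch, and its library values are given after they were seen. It stood at 0.555, 1.21 and 1.44 RPKM in controls, on 6, 13 and 14 reads, and at 1.95, 14.1 and 2.78 RPKM in rab-11.1 libraries, on 16, 118 and 25 reads. The groups did not overlap, but the group mean rested on rab-11.1 replicate 2. The log2 fold change of 1.44 had an SE of 0.59 (adjusted p = 0.18, and adjusted p = 0.0621 with the block). The genes cnc-1 and cnc-5 were listed at 0 in all libraries and cnc-11 had at most 4 reads.

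**Figure D3:**
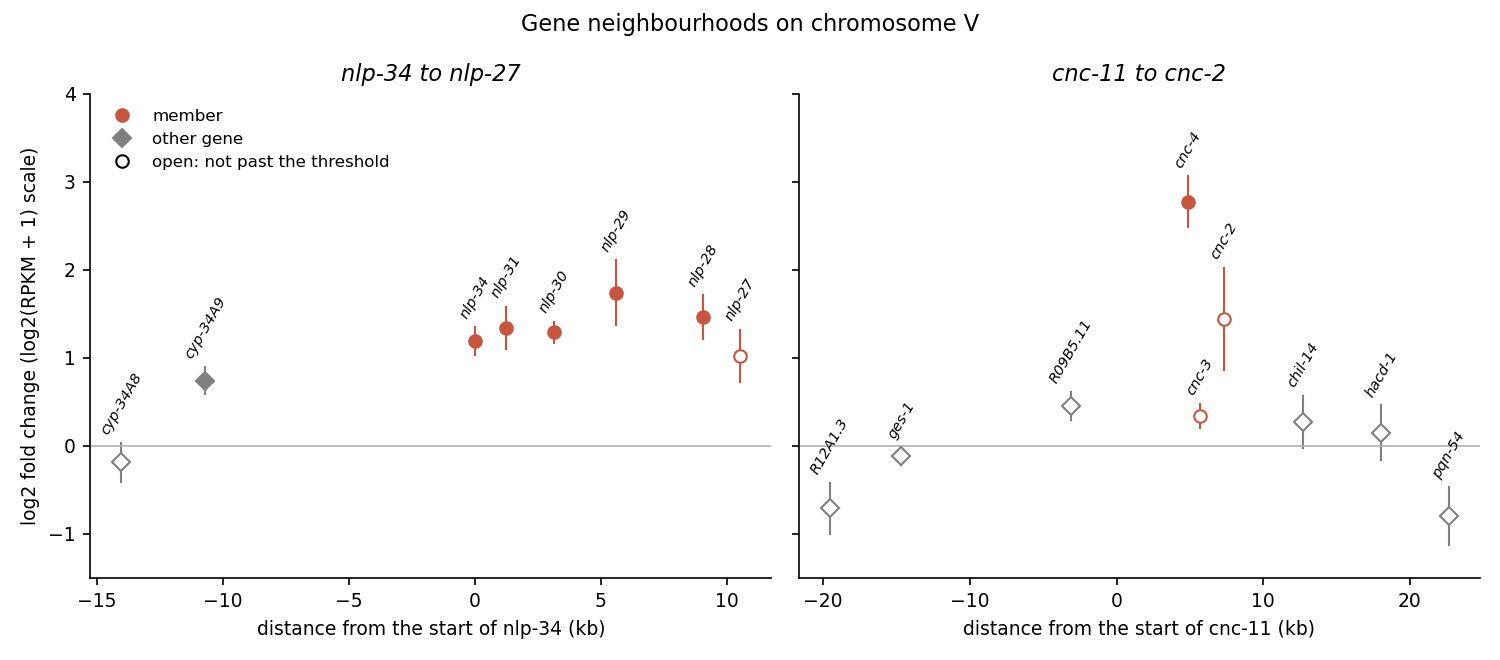
Log2 fold change (log2(RPKM + 1) scale, bars 1 SE) of tested genes against distance in kb from the first member, for the nlp-29 neighbourhood (left) and the cnc-2 neighbourhood (right), both on chromosome V, with genes up to 20 kb away. On the left all 6 members lie at 1.02 to 1.74, and on the right cnc-4 lies at 2.77 and the adjacent cnc-3 at 0.34.

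Of the other cnc genes, cnc-10 and cnc-8 were tested and did not pass with all 6 libraries and no block. Both passed with the block and also, without it, when both replicate 2 libraries were left out. The gene cnc-10 (chromosome V, 11183225 to 11183643, plus strand) stood at 15.4, 22 and 13.3 RPKM in controls and at 27.2, 48.8 and 24.8 RPKM in rab-11.1 libraries. The groups did not overlap (adjusted p = 0.0968 for a log2 fold change of 0.91 with an SE of 0.28, and adjusted p = 0.00332 with the block). The ratios by replicate number were 1.76, 2.22 and 1.86.

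The gene cnc-8 (chromosome X, 10306595 to 10306951, plus strand) stood at 12.4, 34.98 and 14.98 RPKM against 24.7, 46.1 and 33.4 RPKM. Control replicate 2 lay above 2 of the 3 rab-11.1 libraries, and the log2 fold change was 0.81 (SE 0.39, adjusted p = 0.243, and adjusted p = 0.018 with the block). The genes cnc-6, cnc-7 and cnc-9 had at most 3 reads in any library. Of the 5 tested cnc genes, 1 (20%) thus rose, beside 7.93% of all features, and with the block 4 (80%) did, beside 16.5%.

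Among the fip genes, fip-6 rose. It lies on chromosome I (8945533 to 8946244, minus strand) and stood at 23.5, 22.1 and 16.4 RPKM in controls and at 46.5, 60.3 and 35.1 RPKM in rab-11.1 libraries. The groups were well apart, with a 2.29-fold increase (adjusted p = 0.0255 for a log2 fold change of 1.14 with an SE of 0.21). The call ended without control replicate 1 or 3 or rab-11.1 replicate 1 (adjusted p = 0.0665, 0.103 and 0.0819). Its closest member neighbour, fipr-26, had 4 reads in rab-11.1 replicate 2 and 0 elsewhere.

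The other tested fip genes were high in both groups. The gene fip-2 (chromosome V, 9067978 to 9068390, plus strand) stood at 45.2, 59.1 and 47.1 RPKM against 57.4, 68.0 and 59.8 RPKM (adjusted p = 0.185 for a log2 fold change of 0.29 with an SE of 0.12, and adjusted p = 0.0365 with the block). The gene fip-5 (chromosome X, 10302741 to 10303143, plus strand) stood at 15.7, 28.1 and 16.6 RPKM against 22.6, 28.1 and 28.4 RPKM (adjusted p = 0.288 for a log2 fold change of 0.41 with an SE of 0.22). In both genes control replicate 2 reached into the range of the rab-11.1 libraries. The exons of fip-2 overlap T27E4.5 on the other strand.

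Of the 29 fipr genes 14 were tested, and limma called 0 in either direction, with 2 higher and 0 lower at an unadjusted p under 0.05. Limma-voom also called 0, and the fit with the block called 3 higher (fipr-1, fipr-2 and fipr-22). Those 3 were 21.4% of the 14, beside 16.5% of all features. With both replicate 2 libraries left out and no block 3 were also higher (fipr-2, fipr-21 and fipr-22), beside 12.6% of all features. None of the 14 had every rab-11.1 library above every control, against 27.4% of all features, and whether the families differ in this was not tested. Their log2 fold changes ran from -0.33 (fipr-6) to 1.14 (fipr-24), with a median of 0.29.

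The most abundant member of all was fipr-21 (chromosome X, 10304529 to 10304867, plus strand). It stood at 396.1, 526.6 and 396.4 RPKM in controls and at 584.6, 507.0 and 498.1 RPKM in rab-11.1 libraries, on 4764 to 6984 reads. The groups overlapped through control replicate 2 (adjusted p = 0.237 for a log2 fold change of 0.28 with an SE of 0.13). It lies between fip-5 and cnc-8 in a stretch of 4211 bases, and none of the 3 passed with all 6 libraries and no block. All 3 passed with both replicate 2 libraries left out, and fip-5 and cnc-8 without control replicate 2 alone. With the block cnc-8 was the 1 of them that passed.

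The neighbours fipr-1 and fipr-2 on chromosome V came next in level within the family. The gene fipr-2 (12365348 to 12365869, plus strand) stood at 24.03, 53.7 and 31.1 RPKM against 47.4, 69.9 and 55.5 RPKM (adjusted p = 0.173 for a log2 fold change of 0.71 with an SE of 0.29, and adjusted p = 0.016 with the block). The gene fipr-1 (12361301 to 12361744, minus strand) stood at 8.71, 24.99 and 18.0 RPKM against 18.6, 35 and 28.02 RPKM (adjusted p = 0.296 for a log2 fold change of 0.70 with an SE of 0.38, and adjusted p = 0.0155 with the block). In both genes every rab-11.1 library was above the empty vector library of the same number, and the groups overlapped through control replicate 2.

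Another 6 fipr genes, fipr-5, fipr-9, fipr-4, fipr-7, fipr-6 and fipr-8, lie within 18981 bases of chromosome V (10220981 to 10239961). None of them passed with or without the block, and their adjusted p-values were 0.51 to 0.892. On chromosome I, fipr-22 and fipr-24 lie close together (14155429 to 14158078). The means of fipr-22 were 1.68 ± 0.770 and 4.31 ± 2.79 RPKM (adjusted p = 0.187 for a log2 fold change of 0.90 with an SE of 0.38, and adjusted p = 0.0188 with the block). Those of fipr-24 were 1.94 ± 1.12 and 6.98 ± 7.19 RPKM (adjusted p = 0.317 for a log2 fold change of 1.14 with an SE of 0.65). In both genes rab-11.1 replicate 2 was highest, at 7.51 and 15.2 RPKM.

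The remaining tested fipr genes, fipr-3, fipr-10 and fipr-11, had group means between 0.76 and 5.58 RPKM and adjusted p-values of 0.577 to 0.751. Members of these families resemble each other, and where copies are near-identical the counting could have split or shared reads, so single low fipr genes are uncertain.

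The 26 members below the filter were 6 cnc, 4 fip, 15 fipr and 1 nlp gene. Of these, cnc-1, cnc-5, fip-3, fipr-12, fipr-14, fipr-15, fipr-25 and fipr-29 were listed at 0 in all 6 libraries. A count of 0 allows up to 3 reads, or 0.099 to 0.131 RPKM for a transcript of 1 kb. The annotated exons of these genes are shorter, from 153 bases (fip-3) to 716 bases (fipr-29), so their limit in RPKM is higher. The other 18 had at most 17 reads in any library, the highest being fipr-13 in rab-11.1 replicate 2 (1.87 RPKM). In the library labelled replicate 3 of rab-11.1 RNAi, fip-1 had 12 reads (1.86 RPKM) against at most 3 in any other library. Although fip-1 and fipr-13 had every rab-11.1 library above every control in RPKM, they too were below the filter. In reads they were not apart. Control replicate 1 and rab-11.1 replicate 1 both held 2 reads of fip-1 and 8 of fipr-13, and the library labelled replicate 3 held 7 of fipr-13. A fit with no filter tested 50 members, all but those at 0, and called none of the 18.

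The summed level of all 58 members was 1211 ± 245 RPKM in controls and 1601 ± 154 RPKM in rab-11.1 libraries (SD, n = 3). The genes fipr-21, nlp-24 and nlp-33 together held 68.7% to 72% of it in controls and 51.5% to 64.8% after rab-11.1 RNAi. By library the full sum was 1050, 1493 and 1090 RPKM against 1495, 1778 and 1530 RPKM, so the groups only just did not overlap. Without these 3 genes the sum was 294, 467 and 315 RPKM against 527, 861 and 585 RPKM, and the groups did not overlap either. None of the 3 abundant genes passed. The larger ratio of means without them (1.83, against 1.32 with them) follows from leaving them out.

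**Figure D4:**
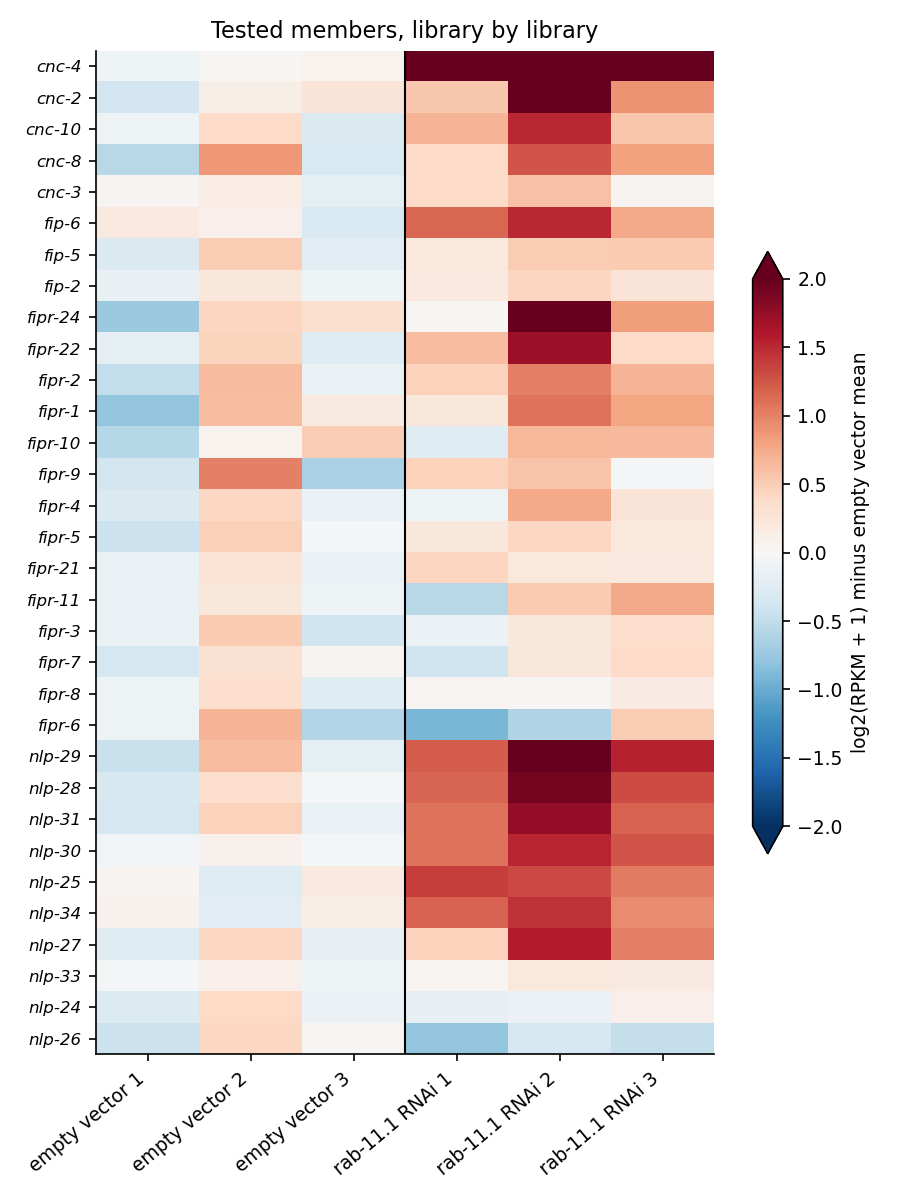
Each tested member (rows, by family) in each library (columns), as log2(RPKM + 1) minus the mean of the empty vector libraries, with colours saturating at 2 and -2. Replicate 2 is the highest column of its group for 26 of 32 members with the empty vector and for 23 of 32 after rab-11.1 RNAi.

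The members also varied within groups, and replicate 2 stood out in each. Control replicate 2 was the highest empty vector library for 26 of the 32 tested members (81.2%), against 39.6% of all features. The library rab-11.1 replicate 2 was the highest of its group for 23 (71.9%), against 40.7% of all features. The deviations of replicates with the same number correlated at 0.40, 0.62 and 0.35 across all tested features.

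Genes that mark the onset of adulthood fell in part. Of all features tested 7.93% were called higher and 1.07% lower, or 16.5% and 4.47% with the block. These shares stand beside the counts of every list below. Of a list of 12 yolk protein and adult cuticle collagen genes, 5 fell after rab-11.1 RNAi, 0 rose and 7 did not pass (median log2 fold change -2.45, with 0 higher at an unadjusted p under 0.05), and with the block 10 were lower. Limma-voom called 2 lower and 0 higher. The count was 0 without control replicate 1 or without control replicate 3, 8 without control replicate 2, and 1, 2 and 3 without rab-11.1 replicates 1, 2 and 3. The yolk protein gene vit-3 stood at 149.5, 36.8 and 151.6 RPKM in controls and at 2.14, 2.03 and 8.30 RPKM in rab-11.1 libraries (adjusted p = 0.0117 for a log2 fold change of -4.42 with an SE of 0.66). Control replicate 2, the highest control for most peptide genes, thus held the least vit-3. The call of vit-3 ended without control replicate 1 or 3 (adjusted p = 0.0538 and 0.0624). The summed level of the list was 2433 to 5369 RPKM in controls and 1481 to 3054 RPKM in rab-11.1 libraries. The part of the worms' age at harvest in the change of the peptide genes was not tested.

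Of a list of 20 genes of the moult cycle and the apical matrix, limma called 0, as did limma-voom (5 higher and 1 lower at an unadjusted p under 0.05 in each). With the block 5 of them were higher and 1 lower. The furrow collagens, whose loss is known to turn on the nlp-29 group, were all 6 tested, and with all 6 libraries limma called 0 with or without the block (median log2 fold change 0.34, and 0 at an unadjusted p under 0.05). Limma-voom called 0 of them, with 1 higher at an unadjusted p under 0.05. The cuticle collagen gene dpy-7 passed without control replicate 2, and 1 furrow collagen was higher with both replicate 2 libraries left out.

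The regulators of the nlp-29 group were read next, from a list of 19 genes of the epidermal p38 and STA-2 pathway and related kinases, all of them tested. Of these 19, 7 rose, 0 fell and 12 did not pass (0 lower at an unadjusted p under 0.05 and by limma-voom), where 7.93% of all features were called higher. The median log2 fold change of the list was 0.30. The largest increase was that of nipi-3, a Tribbles-like kinase needed for the induction of nlp-29 by infection. It stood at 31.2, 41.8 and 32.1 RPKM in controls and at 84.0, 117.1 and 77.7 RPKM in rab-11.1 libraries (adjusted p = 0.00775 for a log2 fold change of 1.37 with an SE of 0.18). The groups were far apart, replicate 2 was again the highest in each, and the call held without any single library.

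Along the cascade itself the changes were uneven. The adaptor gene tir-1, at the top, rose 1.90-fold to 18.7 ± 4.18 RPKM, from 9.84 ± 0.461 RPKM (adjusted p = 0.0232 for a log2 fold change of 0.84 with an SE of 0.15). The kinase genes nsy-1 and sek-1 below it did not pass, with log2 fold changes of -0.08 (adjusted p = 0.627) and 0.23 (adjusted p = 0.0943). The p38 kinase gene pmk-1 rose 1.45-fold to 25.4 ± 1.43 RPKM, from 17.5 ± 1.86 RPKM (adjusted p = 0.0264 for a log2 fold change of 0.52 with an SE of 0.10). Whether the members of the cascade differ from each other in their change was not tested.

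The STAT-like gene sta-2 rose 2.28-fold to 11.6 ± 3.55 RPKM, from 5.08 ± 0.511 RPKM (adjusted p = 0.0319 for a log2 fold change of 1.02 with an SE of 0.21). The transporter gene snf-12, whose product works with STA-2, did not pass (log2 fold change 0.30, adjusted p = 0.309), nor did the receptor gene dcar-1 (log2 fold change 0.41, adjusted p = 0.0986, and adjusted p = 0.0377 with the block). The epidermal GATA factor gene elt-3 rose 1.55-fold (adjusted p = 0.0385). The calls of pmk-1, sta-2 and elt-3 ended with median-of-ratios scaling (adjusted p = 0.0793, 0.0564 and 0.0943). Without control replicate 3 those of tir-1, pmk-1, sta-2 and elt-3 also ended (adjusted p = 0.105, 0.11, 0.13 and 0.155), as they did without control replicate 1 (adjusted p = 0.0893, 0.101, 0.115 and 0.139). Without the library labelled replicate 3 of rab-11.1 RNAi those of tir-1, pmk-1 and elt-3 ended too (adjusted p = 0.0524, 0.0686 and 0.0786). Without rab-11.1 replicate 1 those of pmk-1, sta-2 and elt-3 ended (adjusted p = 0.0705, 0.0887 and 0.0724), and without rab-11.1 replicate 2 those of pmk-1 and elt-3 (adjusted p = 0.0663 and 0.079).

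The stress kinase genes mek-1 and kgb-1, of a parallel MAP kinase branch, rose 2.08-fold and 1.5-fold (adjusted p = 0.0136 and 0.00564). The call of mek-1 ended without control replicate 1 or 3 (adjusted p = 0.0631 and 0.0743). The MAP kinase phosphatase gene vhp-1, a negative regulator, rose too, 2.08-fold from 27.03 ± 2.90 to 56.4 ± 7.58 RPKM (adjusted p = 0.00564). It was the 1 gene of 10 on a list of negative regulators that passed (2 with the block), and like kgb-1 it held without any single library. The kinase gene dapk-1, whose loss is known to turn on nlp-29, had a log2 fold change of -0.08 (adjusted p = 0.558).

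Of 11 tested genes of the DBL-1 pathway, 2 rose, 0 fell and 9 did not pass (median log2 fold change 0.23, and 0 lower at an unadjusted p under 0.05 and by limma-voom), and with the block 5 were higher. Higher calls were 7.93% of all features, and 16.5% with the block. The Smad genes sma-4 and sma-2 rose 1.97-fold and 1.52-fold (adjusted p = 0.0131 and 0.023), and the call of sma-2 ended with median-of-ratios scaling (adjusted p = 0.0559). Both calls ended without control replicate 1 (adjusted p = 0.0532 and 0.0911) or 3 (adjusted p = 0.0705 and 0.107), and that of sma-2 also without any 1 rab-11.1 library (adjusted p = 0.0534 to 0.0815). The third Smad gene sma-3 did not pass (log2 fold change 0.49, adjusted p = 0.0803, and adjusted p = 0.0167 with the block). The ligand gene dbl-1 and the receptor gene daf-4 had log2 fold changes of -0.04 and 0.12 (adjusted p = 0.88 and 0.554), with overlapping groups.

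Genes of the osmotic response went the other way or did not pass. Of 5 tested, the inositol transporter gene hmit-1.3 fell 1.31-fold (adjusted p = 0.0385) and 0 rose (1 higher at an unadjusted p under 0.05, and 0 by limma-voom). Leaving out any single library ended that call (adjusted p = 0.0553 to 0.159). With the block 3 of the 5 were lower. The glycerol synthesis gene gpdh-1, a standard readout of osmotic stress, had means of 25.9 ± 5.52 and 15.9 ± 1.88 RPKM and did not pass (adjusted p = 0.057 for a log2 fold change of -0.66 with an SE of 0.17). It was lower with the block (adjusted p = 0.02) and with median-of-ratios scaling (adjusted p = 0.0499).

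**Figure D5:**
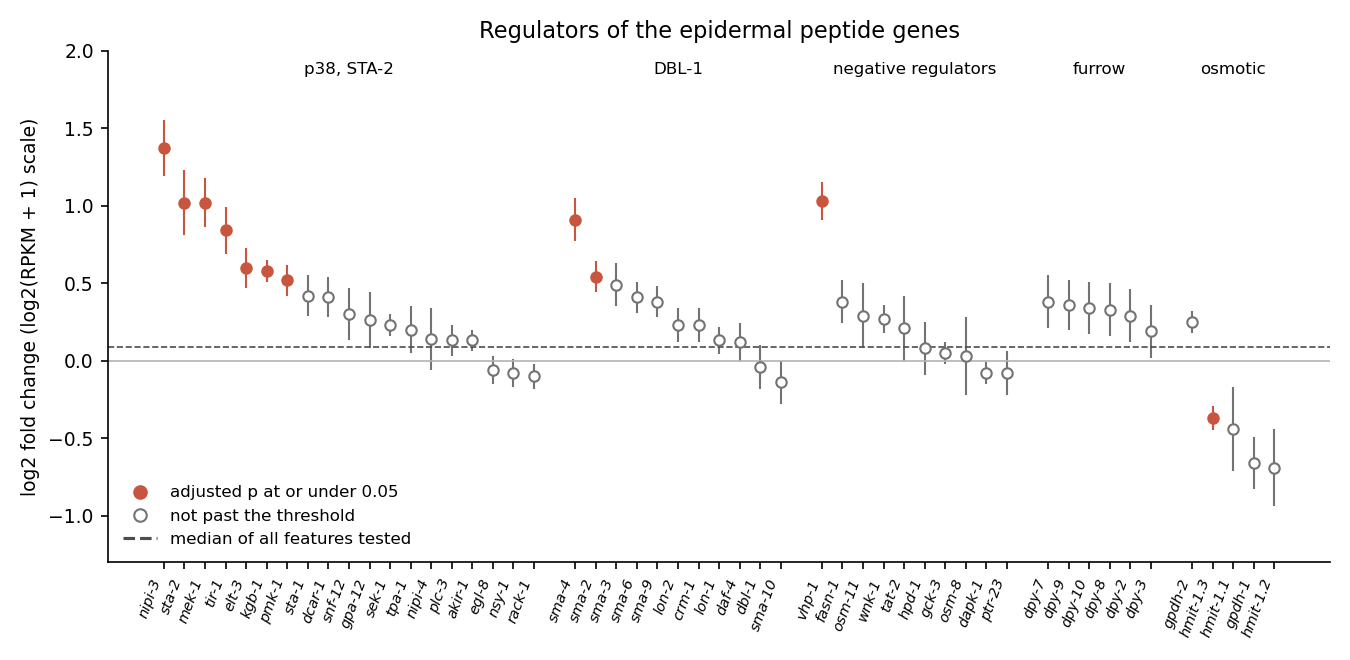
Log2 fold change (log2(RPKM + 1) scale, bars 1 SE) of tested genes of the p38 and STA-2, DBL-1, negative regulator, furrow collagen and osmotic lists. Filled points passed an adjusted p of 0.05, 10 of them above 0 and hmit-1.3 below, and the dashed line is the median of all features, 0.09.

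Markers of cell types were read beside these results. Of all features 7.93% were called higher and 1.07% lower, or 16.5% and 4.47% with the block. Of 16 epidermis markers 1 rose (elt-3) and 0 fell, with a median log2 fold change of 0.12 and a summed level of 7057 to 8499 RPKM in controls against 7136 to 7215 RPKM. Of 14 tested neuron markers 1 rose (snb-1, adjusted p = 0.039), and their sum was 494 to 688 RPKM in rab-11.1 libraries against 376 to 448 RPKM. Without snb-1 the sums of the groups overlapped, at 307.2 to 394.1 RPKM against 248.7 to 321 RPKM. Of 14 tested intestine markers cpr-1 rose and vha-6 fell (adjusted p = 0.0171 and 0.0369). The call of snb-1 held only without rab-11.1 replicate 2 and ended with median-of-ratios scaling (adjusted p = 0.078). That of vha-6 held only without the library labelled replicate 3, and that of cpr-1 ended without control replicate 1 or 3 or rab-11.1 replicate 1 (adjusted p = 0.0688, 0.076 and 0.0661). Of 12 body wall muscle, 10 pharynx and 13 germline markers tested, limma and limma-voom called 0. With the block 7 germline markers and 1 each of the muscle and pharynx were lower, 1 of the pharynx was higher, the epidermis had 4 higher and 1 lower, the intestine 2 higher and 1 lower, and the neurons 3 higher. At an unadjusted p under 0.05 each had 6 lower muscle markers, 2 higher and 2 lower pharynx markers and 0 germline markers. The summed muscle level was 8709 to 8972 RPKM against 8173 to 8481 RPKM, and those of the pharynx and the germline overlapped. Of the 12 muscle markers, 9 had every rab-11.1 library below every control and 1 had every one above. For the pharynx these counts were 3 and 2, and for the germline 0 and 0. Of all features 6.53% had every rab-11.1 library below and 27.4% above. No marker of these lists was at 0 in all libraries. The part of tissue shares in the change of the peptide genes was not tested.

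By position, 34 of the 58 members lie on chromosome V, 10 on chromosome III, 5 each on chromosomes I and IV, and 4 on X. In all, 42 lie within 20 kb of another member, in 13 neighbourhoods. With all 6 libraries and no block, only the nlp-29 neighbourhood held more than 1 call. With the block so did those of cnc-3 and cnc-4, of fipr-1 and fipr-2, and of nlp-25 and nlp-26, the last pair in opposite directions. With both replicate 2 libraries left out so did that of fip-5, fipr-21 and cnc-8. Of the genes within 20 kb of the nlp-29 neighbourhood that are not members, 2 were tested. Of these cyp-34A9, a cytochrome P450 gene, rose from 4.66 to 8.54 RPKM (adjusted p = 0.0377 for a log2 fold change of 0.74 with an SE of 0.16). Within 20 kb of the cnc-2 neighbourhood none of 6 other tested genes passed, the one with the smallest adjusted p being R09B5.11 (adjusted p = 0.152 for a log2 fold change of 0.45).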

How the data were processed

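Polyadenylated RNA of whole L4 larvae was sequenced in 3 libraries per group. The authors deposited RPKM values of 46739 features with the mean of each group, as read from the column names. The submitters' processing notes name WBcel235 as the genome build. The aligner, counter, annotation release and strand setting were not given in these sources. All 58 members were matched by symbol to the Ensembl release 115 annotation of WBcel235, which gave the coordinates.

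The values hold no read counts. Depths were recovered from RPKM steps at annotated exon lengths, and whole reads (tolerance 0.003) from the smallest length that made all 6 values whole, for 13831 of 13833 tested features and for the 50 members above 0. At the annotated exon length 523 tested features gave whole reads. Read numbers of all others are the smallest that fit, also those of features with a few reads in 1 or 2 libraries. The length used was 328 bases for nlp-25 (annotated 1668) and 603 bases for nlp-27 (annotated 316). Precision here covers counting error only.

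A feature entered the test if 3 or more libraries reached 1 RPKM. Values were compared as log2(RPKM + 1) by limma 3.58.1 under R 4.3.3, with eBayes run with trend and robust settings, two-sided, with Benjamini-Hochberg adjustment over all features tested at 0.05. The step was tested on simulated data, drawn independently for each library, so deviations shared by replicate number were not covered. No set test was run. Fits leaving out libraries kept the features tested with all 6. An exact permutation test of 3 against 3 cannot go below 0.1 and was not used. The labels call the replicates biological without saying what was separate. The p-values thus weigh the group difference against the spread between these samples only.

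Libraries with the same replicate number deviated together (0.40, 0.62 and 0.35), which met the rule for pairing, so values with a replicate block are given where they change a call. Control 1 also correlated with rab-11.1 library 3 (0.46), and control 3 with rab-11.1 library 1 (0.18), so the numbers of replicates 1 and 3 could be crossed.

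The members and lists were chosen with earlier results of these data known. Library values are printed for members past the threshold, the 3 most abundant of each family and the 3 with the next smallest adjusted p. Values of cnc-2, fipr-22 and fipr-24 in single libraries, of low members and of genes beside the neighbourhoods were chosen after they were seen. List genes are named where they passed or were sentinels set with the lists. The lists came from general knowledge, and 2 of 168 entries had no match.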

Additional observations from a re-analysis of the deposited data

How the results depend on the processing

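The 8 higher and 0 lower members became 16 and 1 with the replicate block, and 16 and 0 with both replicate 2 libraries left out, a setting without the block. Leaving out 1 library gave 3 to 11 higher members and 0 lower. The 3 without control replicate 1 were 9.38% of the tested members, against 2.31% of all features. The 11 without control replicate 2 were 34.4%, against 6.82%. The 8 members kept their calls with both pseudocounts (0.1 and 5), the filter on the mean and both blocked fits. The other 4 settings with all libraries (no filter, no trend, median-of-ratios scaling, quantile normalization) and limma-voom, chosen after seeing the data, each lost nlp-29 alone (adjusted p = 0.054 to 0.0613).

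All features gave 1097 higher and 148 lower calls. They gave 2288 and 618 with the block, 1745 and 478 without replicate 2 libraries, 553 and 284 with median-of-ratios scaling and 524 and 249 with quantile normalization, and lower calls were 97 with no filter and 96 without the trend. Leaving out 1 library gave 265 to 943 higher and 24 to 133 lower calls. Scaling moved the share of higher calls from 88.1% to 66.1% (median-of-ratios) and 67.8% (quantile), and the median of all features from 0.09 to -0.02 and -0.04, while the median of the members moved from 0.56 to 0.43 in each.

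The 7 higher genes of the p38 list became 4 with median-of-ratios scaling, 3 with quantile normalization and 2 to 7 without 1 library. The 2 of the DBL-1 list became 1 under both scalings and in the blocked fit without both replicate 3 libraries, 5 with the block, 4 without replicate 2 libraries and 0 to 4 without 1 library. The 5 lower genes of the adult-onset list became 10 with the block and without replicate 2 libraries, 3 with no filter and without the trend, 2 with limma-voom and 0 to 8 without 1 library. The signs of 20 members and 28 list genes were followed through every setting. Among these, signs turned for nlp-24 (0.17 without replicate 2 libraries, -0.20 to 0.13 without 1 library), dbl-1 (-0.15 to 0.09 without 1 library) and daf-4 (-0.02 with quantile normalization). Other members turned too. Of the 14 tested fipr genes, 1 had a negative log2 fold change with all 6 libraries and no block. The number was 0 without control replicate 2 and without both replicate 2 libraries. It was 5 in the blocked fit without both replicate 3 libraries. The causes were not tested. Depth limits the members below 1 RPKM.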
